A study of Danio rerio with 16 samples.

Results

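The lens crystallin genes of the zebrafish were followed in whole embryos of a wfikkn1 mutant line and of wild type, each exposed to TCDD or to vehicle. A gene was taken as a member when its symbol begins with cryaa, cryab, cryba, crybb, crygm, crygn or crygs, in any case, and when it had at least 10 counts summed over all libraries. Of 32520 genes in the count table, 57 matched by name and 46 had enough counts. The 46 members are 1 alpha, 13 beta and 32 gamma crystallins, and the gamma class is made of 29 gamma M, 2 gamma N and 1 gamma S genes. Of the gamma M genes, 21 are numbered copies of crygm2d. The 11 matching genes left out had 7 counts or fewer, among them both alpha B genes with 5 and 7 counts, and the member closest to the limit was crygm3 with 11 counts.

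Crystallins are the water-soluble proteins that fill the fibre cells of the lens and give it transparency and refractive power. Alpha crystallins are small heat shock proteins that act as chaperones, while beta and gamma crystallins share a Greek key fold and serve mainly as structural proteins. Beta crystallins assemble into oligomers and gamma crystallins are monomers, and gamma M crystallins, rich in methionine, are known from the dense lenses of fish. Crystallin genes are switched on as lens cells elongate into fibres, so in an RNA pool of a whole embryo they report on a small tissue.

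The 4 groups were wfikkn1 mutant embryos with TCDD, wfikkn1 mutant embryos with DMSO, Tropical 5D wild-type embryos with TCDD and Tropical 5D wild-type embryos with DMSO. TCDD (2,3,7,8-tetrachlorodibenzo-p-dioxin) is a ligand of the aryl hydrocarbon receptor and was given at 1 ng/mL, and DMSO, the vehicle, was given at 0.1%. Exposure began at 4 hours post fertilization (hpf) and lasted 1 h, and embryos were collected at 48 hpf. Each sample was a pool of 9 whole embryos from a dish of its own, with n = 4 for mutant TCDD, n = 4 for mutant DMSO, n = 3 for wild-type TCDD and n = 3 for wild-type DMSO. Wild-type replicate 2, with TCDD and in DMSO, was not analysed here. The labels do not give the wfikkn1 allele or the kind of mutation, nor whether the TCDD dose carried DMSO. Values below run in replicate order, 1 to 4 in mutants and 1, 3 and 4 in wild type.

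Libraries held 20597475 to 26884477 counts. The targeted gene wfikkn1 had 14 to 22 counts in mutant TCDD, 0 to 4 in mutant DMSO, 214 to 520 in wild-type TCDD and 10 to 19 in wild-type DMSO libraries. Of the 46 crystallin genes, 38 had enough counts to be tested. The remaining 8 (CRYBB2, crygm2c, crygm2d5, crygm2d12, crygm2d20, crygm3, crygm4 and CRYGN) had 11 to 89 counts in all and at most 26 in any library. Lens genes other than crystallins were present in every group, with bfsp2, the beaded filament protein phakinin, at a mean of 117 CPM (read counts scaled to library size) in mutant TCDD, 94 in mutant DMSO, 135 in wild-type TCDD and 140 in wild-type DMSO. A gene is called when the p of edgeR's quasi-likelihood F test, after Benjamini-Hochberg adjustment across 20098 genes, is under 0.05. Fold changes are given on the log2 scale ± SE.

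The wild-type DMSO library of replicate 4 stood apart from the others of its group. It was the highest of the 3 in 33 of the 38 tested crystallin genes. Calls of single genes and alpha, beta and gamma sums that rest on it are given with and without it. Counts of signs, medians and the summed crygm2d copies were not recomputed without it. The main axis along which libraries of the same group differed, found from 15143 genes, gave each library a score, on which replicate 4 of wild-type DMSO scored -40.3 and the other wild-type DMSO libraries -0.987 and 10.7. The scores moved with the groups, at -28.9 to -11.1 in mutant TCDD, -8.48 to 30.4 in mutant DMSO and 14.8 to 28.1 in wild-type TCDD. The 28 crystallin genes on this axis had a median percentile of 11.9 among the gene weights. Genes at that end are higher in libraries of low score, so the score is not independent of the crystallin values. In the RNA of whole embryos, fewer lens cells and less crystallin RNA per lens cell cannot be told apart.

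Summed over each class, beta and gamma crystallin RNA was lowest in mutant DMSO embryos, and alpha was not. The 13 beta genes together had 2453 ± 116 CPM in mutant TCDD, 1928 ± 128 CPM in mutant DMSO, 2507 ± 83.2 CPM in wild-type TCDD and 2634 ± 443 CPM in wild-type DMSO libraries (mean ± SD, n = 4, 4, 3 and 3). Every mutant DMSO library lay between 1789 and 2041 CPM for the beta class, below every library of the other groups, of which the lowest was a wild-type DMSO library at 2312 CPM. The 32 gamma genes together had 1619 ± 98 CPM in mutant TCDD, 1384 ± 125 CPM in mutant DMSO, 1679 ± 249 CPM in wild-type TCDD and 1965 ± 393 CPM in wild-type DMSO libraries (mean ± SD, same n). Gamma sums of mutant DMSO libraries, at 1241 to 1497 CPM, overlapped those of mutant TCDD at 1486 to 1712 CPM and of wild-type TCDD at 1430 to 1927 CPM, but not those of wild-type DMSO at 1625 to 2395 CPM.

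**Figure D1:**
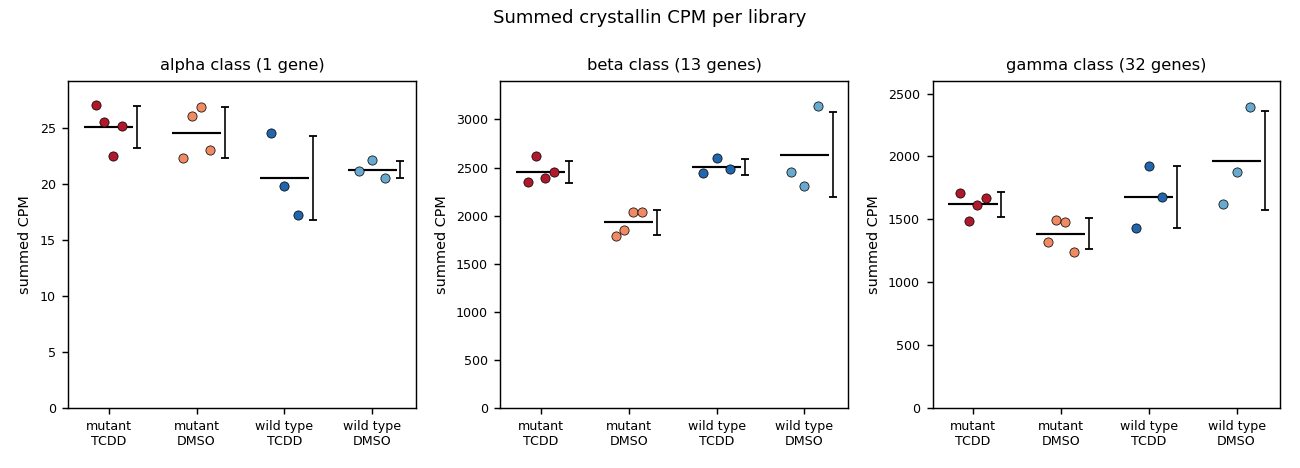
Summed CPM of the alpha, beta and gamma crystallin genes (vertical axes, from 0) in each library of the 4 groups (horizontal axis). Points are libraries, horizontal lines are group means and bars show the SD; in the beta panel every mutant DMSO library lies at or below 2041 CPM and every other library at or above 2312 CPM.

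The ratio of the class sums between the exposures differed in sign between the lines. With TCDD against DMSO, the log2 ratio of mean sums was 0.35 for beta and 0.23 for gamma in mutants, and -0.07 for beta and -0.23 for gamma in wild type. Without replicate 4 of wild-type DMSO, the wild-type ratios were 0.03 for beta and -0.10 for gamma. Mutant against wild type, the log2 ratio in DMSO was -0.45 for beta and -0.51 for gamma, and -0.31 and -0.34 without that library. With TCDD the mutant sums were close to those of wild type, at -0.03 for beta and -0.05 for gamma. These sums carry no test of their own and are weighted to the genes with most counts. With TCDD in wild type, 20 of 25 tested gamma genes had a positive log2 fold change (median 0.26), and 7 of 12 beta genes (median 0.03). The gamma sum was nevertheless lower there, with crygm2d8 at a mean of 614.8 CPM against 967.9 in DMSO and crygm2d2 at 178.9 against 308.3. In mutants 20 of 25 gamma and 11 of 12 beta genes were positive.

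In mutant embryos 19 of the 38 tested crystallin genes rose with TCDD, by 1.24- to 2.92-fold, and crygmxl1, a gamma M gene, was the single one that fell. Over all genes tested, 17.5% were called higher and 18.6% lower in that comparison. The median log2 fold change was 0.51 over the crystallin genes and 0.0045 over all genes. Called in either direction were 20 of the 38, against 36.1% of all genes. All 4 TCDD libraries lay above all 4 DMSO libraries for 18 of the 38 genes, a separation seen in 19.5% of all genes, and below them for 1, against 17.8%. Those that rose were 5 of 12 tested beta genes (cryba1b, cryba1l1, cryba2b, crybb1 and crybb1l2) and 14 of 25 tested gamma genes. With the library score as a term, 6 calls were left instead of 20, with 5 genes higher (cryba1l1, crygm2d10, crygm2d21, crygmxl2 and crygn2) and crygmxl1 lower. That was fewer than the 8 calls that the same fit gave for TCDD in wild type. Since the scores of the exposures did not overlap in mutants, that fit cannot fully separate the score from TCDD. The near-identical crygm2d copies are not independent of each other, and with their counts summed to 1 row, 8 of 21 rows rose and 1 fell.

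Mutants in DMSO had less crystallin RNA than wild type in DMSO for 10 of the 38 genes, and more for crygmxl1. Over all genes, 8.6% were called lower, 8.21% higher and 16.8% in either direction. Mutant libraries lay below every wild-type library for 9 of the 38 genes, crygs1 among them, against 12.3% of all genes. They lay above for 3, against 11.4%. The 10 that fell were 4 beta genes (cryba1l1, cryba4, crybb1 and crybb1l2), 5 crygm2d copies (crygm2d1, crygm2d2, crygm2d10, crygm2d13 and crygm2d21) and crygs1. The last of these passed the filter on low counts through its wild-type libraries, and 9 are left without it. All 12 tested beta genes had a negative log2 fold change, and the median over the 38 crystallin genes was -0.28, against 0.0017 over all genes. That count and median were not taken without replicate 4 of wild-type DMSO. Without replicate 4 of wild-type DMSO, 8 genes, crygs1 among them, were called lower and crygmxl1 higher, and crygm2d10 and crygm2d13 lost their calls. With the library score as a term 7, crygs1 among them, were lower and crygmxl1 higher, and crybb1, crygm2d10 and crygm2d13 lost their calls. This comparison and that of TCDD in mutants share the mutant DMSO libraries, so a gene low in those libraries enters both.

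TCDD in wild type changed few crystallin genes. There, cryba1l1, cryba2b, crygmxl2 and crygn2 rose, while crygm2d2 and crygm2d8 fell. The 4 that rose and the 2 that fell were close to the shares over all genes, where 8.84% were called higher, 5.75% lower and 14.6% in either direction. TCDD libraries lay above every DMSO library for 5 of the 38 genes, against 16.2% of all genes, and below for 4, against 11.4%. The median log2 fold change was 0.24 over the crystallin genes and 0.03 over all genes. The 4 genes that rose in wild type also rose in mutants, whose libraries are separate. Over all genes, 30.2% of the 1777 called higher in wild type were also called higher in mutants, and these were 15.2% of the 3524 called higher there. Fitted with the wild-type libraries alone, crygm2d2 was the single crystallin gene called. Without replicate 4 of wild-type DMSO, 7 genes were called higher, and neither crygm2d2 nor crygm2d8 kept its call. In all, 2 genes were called without wild-type DMSO replicate 1, 3 without wild-type TCDD replicate 3 and 2 without wild-type TCDD replicate 4. With the library score as a term 8 genes were called, all higher, with crygm2d14, crygm2d16, crygm2d17 and crygm2d18 added and neither crygm2d2 nor crygm2d8 called. The scores of the exposures did not overlap in wild type either, so that fit cannot fully separate the score from TCDD.

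Mutants with TCDD differed from wild type with TCDD at 7 of the 38 genes. Higher in mutants were cryba1l2, crygm2d11 and crygmxl1, and lower were cryba4, crygm2d1, crygm2d2 and crygs1, for which the same limit holds. Over all genes, 10.7% were called higher, 16.9% lower and 27.6% in either direction, so the crystallin calls were no more frequent than the calls over all genes. Mutant libraries lay above every wild-type library for 5 of the 38 genes, against 16.4% of all genes, and below for 6, against 20.8%. Leaving crygs1 aside, cryba4, crygm2d1 and crygm2d2 were called lower in mutants both with TCDD and in DMSO. In both exposures crygmxl1 was higher. Over all genes, 783 were lower in both, which is 23.1% of those lower with TCDD and 45.3% of those lower in DMSO, and 629 were higher in both, 29.2% and 38.1%. With the library score as a term, none of the 3 higher genes kept its call, nor did cryba4 and crygm2d1 among the lower ones. In all, 4 genes were called in that fit, crygs1 among them. With TCDD the scores of the lines did not overlap, so that fit cannot fully separate the score from the line.

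The TCDD effect itself differed between the lines for crybb1l2 and crygm2d21, both with a larger rise in mutants. In this test of the difference 1.85% of all genes were called higher in mutants, 10.2% lower and 12% in either direction. No crystallin gene was called lower in it by edgeR, at an unadjusted p under 0.05 (0 genes), or by DESeq2 or limma-voom (0 genes each). The difference was positive for 34 of the 38 genes, with a median of 0.35, against 0.05 over all genes. That count and median were not taken without replicate 4 of wild-type DMSO. Without that library, the difference in class sums went from 0.42 to 0.28 for beta and from 0.45 to 0.30 for gamma. Neither call held without replicate 4 of wild-type DMSO, without replicate 2 or 4 of mutant TCDD, or with the library score as a term. The next gene, cryba1l2, had a difference of 0.60 ± 0.19 (edgeR adjusted p = 0.0503, 0.0111 to 0.747 over the alternatives) and was called with RLE scaling, no filter, the 1 CPM filter, DESeq2, the replicate block and the sample-number term.

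**Figure D2:**
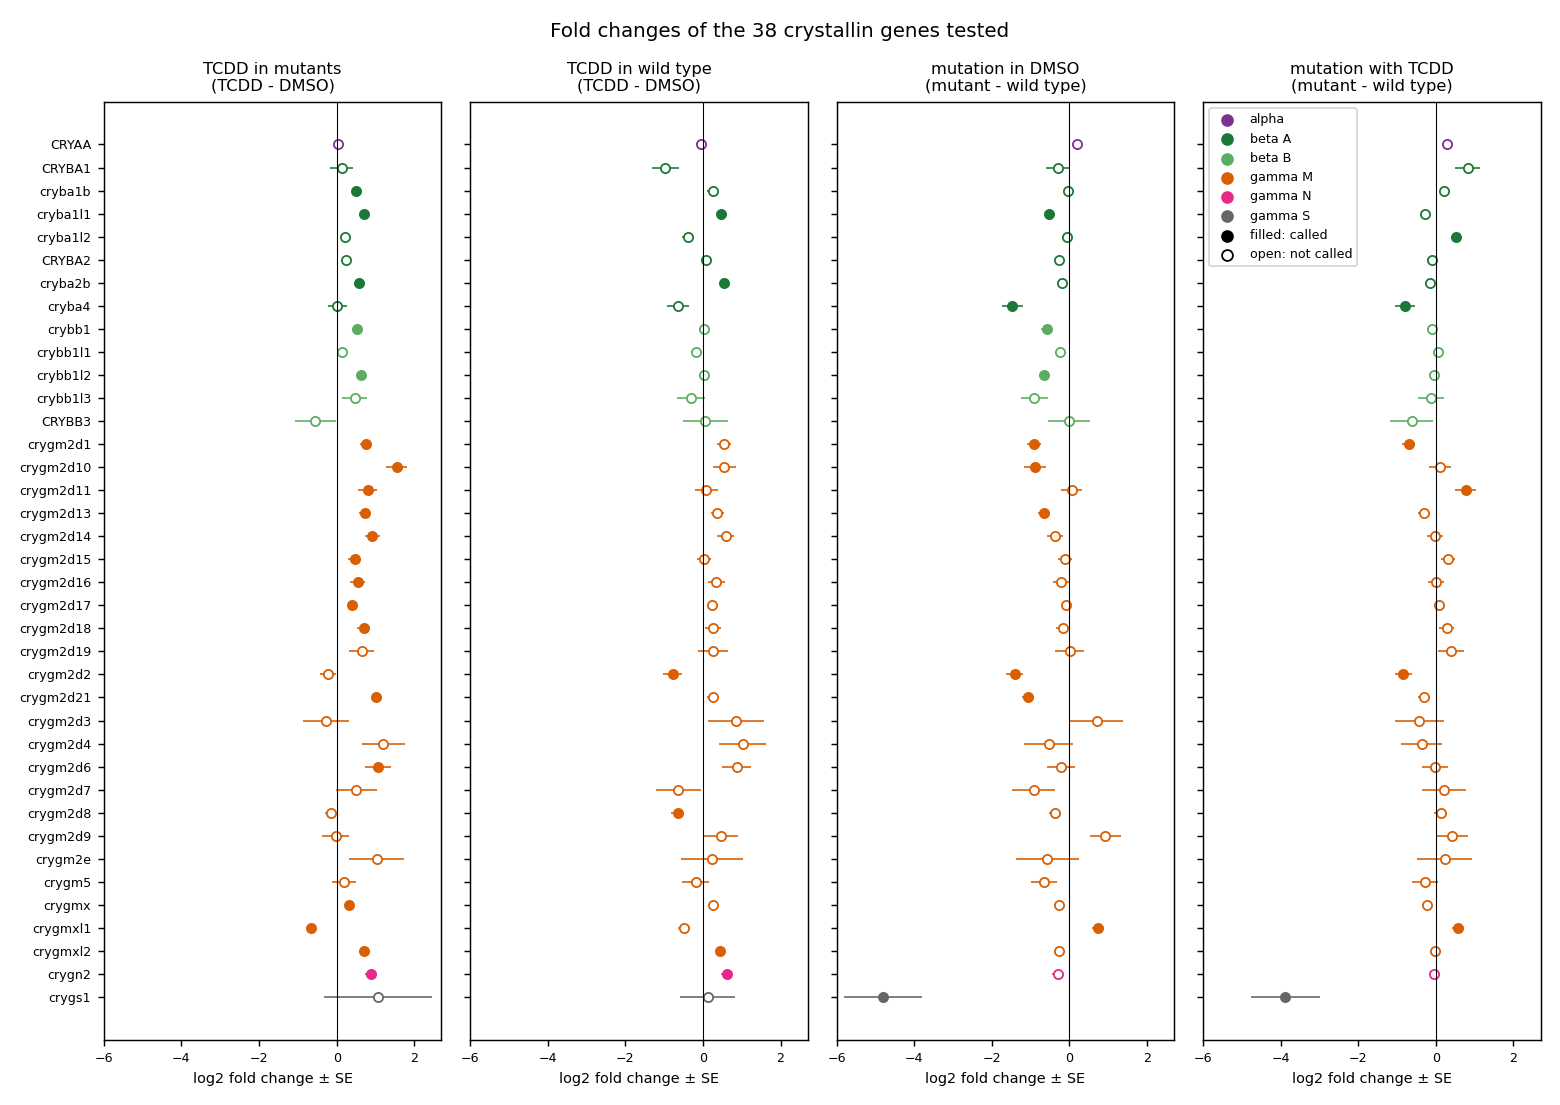
Log2 fold change ± SE (horizontal axes) of the 38 tested crystallin genes (rows, coloured by class) in 4 comparisons, with called genes as filled points. With TCDD in mutants 19 genes are filled to the right of 0 and 1 to the left, and for mutants against wild type in DMSO 10 are filled to the left and 1 to the right; crygs1, far to the left in both comparisons of the lines, passed the filter through its wild-type libraries, and its fitted size depends on how near-zero counts are handled.

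The alpha class was represented by CRYAA (ENSDARG00000053502), the chaperone alpha A crystallin. It had 27.05, 25.58, 22.51 and 25.17 CPM in mutant TCDD and 22.34, 26.09, 26.92 and 23.03 CPM in mutant DMSO libraries. In wild type it had 24.57, 19.82 and 17.24 CPM with TCDD and 21.19, 22.11 and 20.58 CPM in DMSO. All mutant DMSO libraries lay just above all wild-type DMSO libraries, and the other groups overlapped. No comparison called it. Mutant against wild type, its log2 fold change in DMSO was 0.21 ± 0.12 (edgeR adjusted p = 0.243), and the value with TCDD was 0.29 ± 0.12 (edgeR adjusted p = 0.0814), so its values ran opposite in sign to the beta class in DMSO. With TCDD, DESeq2 and the filter of 1 CPM in 4 libraries called it higher in mutants, as did the fits without wild-type TCDD replicate 1 (0.44) or mutant DMSO replicate 1 (0.34).

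Among the beta B genes, which code for the basic beta crystallins, crybb1l2 had the clearest separation. It had 486.9, 609.9, 531.8 and 530.1 CPM in mutant TCDD and 339.6, 341.6, 348.9 and 362.6 CPM in mutant DMSO libraries. In wild type it had 506.7, 580.1 and 577.8 CPM with TCDD and 451.9, 469.6 and 707.3 CPM in DMSO. Mutant DMSO libraries were low and close together, and every library of the other groups lay above them. The rise with TCDD in mutants was 0.63 ± 0.11 (edgeR adjusted p = 0.000507), and the mutants in DMSO were lower than wild type (log2 fold change -0.64 ± 0.12, edgeR adjusted p = 0.00193). The TCDD effect was larger in mutants than in wild type by 0.60 ± 0.17 (edgeR adjusted p = 0.0308). That difference was 0.38 and not called without replicate 4 of wild-type DMSO, the library at 707.3 CPM. It was 0.53 to 0.60 and not called without wild-type TCDD replicate 1, mutant DMSO replicate 2 or either of mutant TCDD replicates 2 and 4. Neither that difference nor the rise in mutants was called with the library score as a term.

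The same order was seen for crybb1, a beta B gene described here because it was called, after its values were seen. It had 155.3, 151.2, 159 and 157.2 CPM in mutant TCDD and 110, 112.3, 116.1 and 97.79 CPM in mutant DMSO libraries. Wild-type libraries had 150.9, 201.8 and 149.4 CPM with TCDD and 138.6, 140.9 and 212.2 CPM in DMSO. Mutant DMSO libraries again lay below all others. TCDD in mutants raised it by 0.51 ± 0.12 (edgeR adjusted p = 0.00379), and mutants in DMSO held less of it than wild type (log2 fold change -0.59 ± 0.13, edgeR adjusted p = 0.00592). With the library score as a term neither was called.

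The beta crystallin with the most counts, crybb1l1, was not called in any comparison. It had 898.6, 888.1, 866.5 and 895.3 CPM in mutant TCDD and 748.1, 752.8, 875.4 and 856.4 CPM in mutant DMSO libraries. In wild type it had 891.4, 920.1 and 738.8 CPM with TCDD and 942, 797.2 and 1141 CPM in DMSO. The groups overlapped in each of the 4 comparisons of groups, although mutant DMSO held the lowest mean.

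Beta A genes, which code for the acidic beta crystallins, were more varied. For cryba1l1 the libraries held 117.3, 113.1, 102.4 and 115.1 CPM in mutant TCDD and 67.25, 76.54, 66.43 and 65.87 CPM in mutant DMSO. Wild-type libraries held 128.3, 144.1 and 135.7 CPM with TCDD and 83.83, 92.71 and 120.4 CPM in DMSO. In each line the TCDD libraries lay above the DMSO libraries, and mutants in DMSO lay below all others. The rise with TCDD was 0.70 ± 0.10 in mutants (edgeR adjusted p = 7.39e-05) and 0.46 ± 0.11 in wild type (edgeR adjusted p = 0.0127), where without DMSO replicate 1 it was 0.34 and not called. In DMSO mutants were lower than wild type (log2 fold change -0.52 ± 0.10, edgeR adjusted p = 0.00281), while the value with TCDD, -0.28 ± 0.10, did not pass (edgeR adjusted p = 0.0532). The value with TCDD was called with limma-voom, the groups compared alone, the replicate block or the library score, and without wild-type DMSO replicate 1, 3 or 4.

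TCDD raised cryba2b in both lines. It had 35.83, 34.67, 35.07 and 36.38 CPM in mutant TCDD and 25.09, 22.61, 23.27 and 23.85 CPM in mutant DMSO libraries, and 40.96, 40.48 and 37.38 CPM in wild-type TCDD and 22.73, 25.4 and 33.05 CPM in wild-type DMSO libraries. Neither line showed overlap between exposures. The rise was 0.58 ± 0.10 in mutants (edgeR adjusted p = 0.000334) and 0.55 ± 0.11 in wild type (edgeR adjusted p = 0.00623), and the lines were not called different in either exposure. The rise in mutants was not called with the library score as a term. That in wild type was not called with the wild-type libraries fitted alone.

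The most counts in the beta A group belonged to cryba1b. It had 443.6, 489.2, 359.7 and 453.7 CPM in mutant TCDD, 268.8, 299.8, 326.9 and 337.9 CPM in mutant DMSO, 416.7, 328.9 and 374.7 CPM in wild-type TCDD and 308.6, 257 and 377.5 CPM in wild-type DMSO libraries. All mutant TCDD libraries lay above all mutant DMSO libraries, and the wild-type exposures overlapped. TCDD gave a rise of 0.50 ± 0.12 in mutants (edgeR adjusted p = 0.00335) and a value of 0.25 ± 0.14 in wild type that was not called (edgeR adjusted p = 0.244). The rise in mutants was not called with the library score as a term.

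Within this class, cryba4 went its own way. It had 66.76, 193.5, 181.1 and 118.1 CPM in mutant TCDD and 116.8, 119.9, 149 and 165.8 CPM in mutant DMSO libraries. In wild type it had 177.7, 220.3 and 331.4 CPM with TCDD and 380.3, 379.6 and 383.6 CPM in DMSO. The wild-type DMSO libraries were high and close together, while the libraries of the other groups were widely spread. In DMSO mutants were lower than wild type (log2 fold change -1.47 ± 0.26, edgeR adjusted p = 0.00124), and under TCDD (log2 fold change -0.80 ± 0.26, edgeR adjusted p = 0.0321). The call with TCDD was lost with DESeq2, with the groups compared alone, with the library score as a term and without wild-type TCDD replicate 4 or either of mutant TCDD replicates 1 and 4. TCDD in wild type gave -0.65 ± 0.28, which was not called (edgeR adjusted p = 0.14).

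With TCDD, cryba1l2 was higher in mutants than in wild type. It had 33.34, 31.93, 45.07 and 34.29 CPM in mutant TCDD and 23.54, 26.18 and 25.2 CPM in wild-type TCDD libraries, which did not overlap. The DMSO libraries held 25.53, 29.61, 35.13 and 34.56 CPM in mutants and 28.17, 34.12 and 35.63 CPM in wild type and did overlap. The difference between the lines with TCDD was 0.53 ± 0.14 (edgeR adjusted p = 0.00752).

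**Figure D3:**
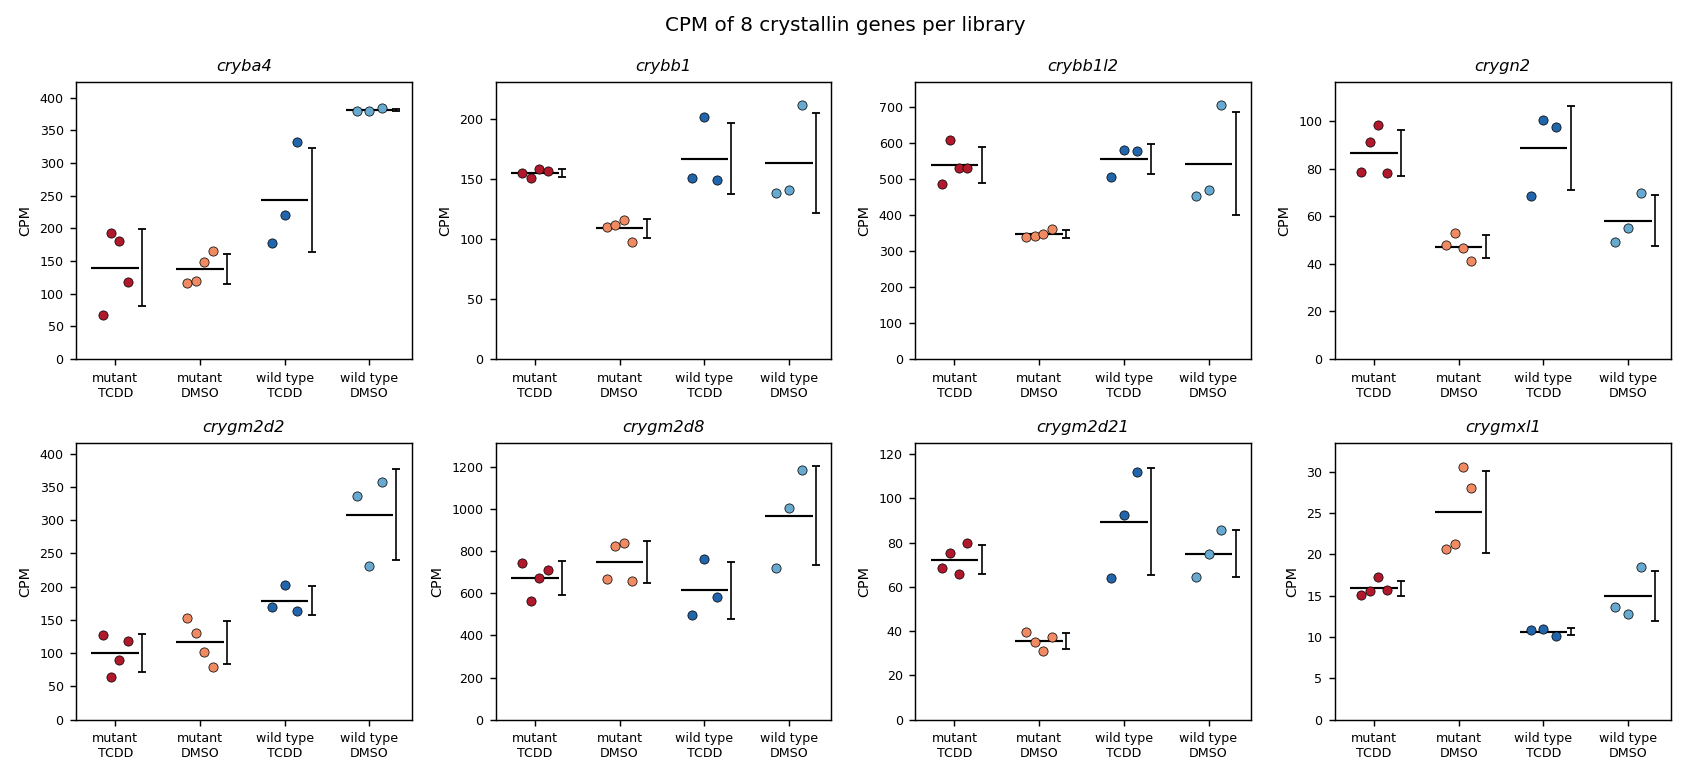
CPM of 8 crystallin genes (vertical axes, from 0) in each library of the 4 groups (horizontal axis), with group means as lines and the SD as bars. For crybb1, crybb1l2 and crygm2d21 the mutant DMSO libraries lie below all others; crygmxl1 is highest in mutant DMSO, and crygm2d2 and cryba4 are highest in wild-type DMSO.

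The crygm2d genes are numbered copies of a gamma M crystallin and how reads that match more than one copy were counted is not given in the sources used here, so the split of reads between copies is uncertain. Of 21 copies, 18 were tested. With TCDD in mutants 11 of them rose, where 17.5% of all genes were called higher, with a median log2 fold change of 0.67 over the 18. TCDD in wild type called crygm2d2 and crygm2d8 lower, where 5.75% of all genes were called lower, both calls being lost with the library score as a term. Even so, 15 of the 18 copies had a positive log2 fold change with TCDD in wild type (median 0.30), against 14 of the 18 in mutants. In DMSO 5 of the 18 had less RNA in mutants, where 8.6% of all genes were called lower. Summed to 1 row, the copies were not called with TCDD in either line (log2 ratio of mean sums 0.18 in mutants and -0.31 in wild type), and they were called lower in mutants in DMSO (-0.54). Summed over all 21 copies, mutant TCDD libraries held 1380 ± 102 CPM, mutant DMSO 1221 ± 118 CPM, wild-type TCDD 1434 ± 221 CPM and wild-type DMSO 1781 ± 360 CPM (mean ± SD, n = 4, 4, 3 and 3). The wild-type DMSO libraries held 1468.5, 1698.5 and 2174.9 CPM, against 1081 to 1327 CPM in mutant DMSO. The summed row was not fitted without replicate 4 of wild-type DMSO, the highest of these.

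The largest share of those sums came from crygm2d8. It had 743.7, 562.6, 672.1 and 709.7 CPM in mutant TCDD and 669, 823.7, 840.6 and 656.2 CPM in mutant DMSO libraries. In wild type it had 497, 763.3 and 584.1 CPM with TCDD and 719.7, 1002 and 1183 CPM in DMSO. Exposures overlapped in both lines. TCDD in wild type lowered it (log2 fold change -0.65 ± 0.17, edgeR adjusted p = 0.0181), a call lost without replicate 4 of wild-type DMSO and without either of wild-type TCDD replicates 1 and 4. Mutant against wild type in DMSO, its value of -0.37 ± 0.16 did not pass (edgeR adjusted p = 0.119).

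A further copy, crygm2d2, was high only in wild-type DMSO among the 4 groups. It had 127.8, 64.52, 89.36 and 118.4 CPM in mutant TCDD and 153.3, 130.7, 102 and 78.72 CPM in mutant DMSO libraries. Wild-type libraries had 170.1, 203.2 and 163.3 CPM with TCDD and 336.5, 230.5 and 357.9 CPM in DMSO. All wild-type DMSO libraries lay above all libraries of the other groups, and all wild-type TCDD libraries above all mutant libraries. In DMSO mutants were lower (log2 fold change -1.41 ± 0.22, edgeR adjusted p = 0.000435), and under TCDD (log2 fold change -0.84 ± 0.22, edgeR adjusted p = 0.00972). The fall with TCDD in wild type was -0.79 ± 0.24 (edgeR adjusted p = 0.0367) and was lost when any wild-type library other than replicate 3 of DMSO was left out.

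Opposite to these, crygm2d21 rose with TCDD in mutants. Its libraries held 68.43, 75.37, 65.83 and 79.75 CPM in mutant TCDD, 39.55, 35.18, 31.07 and 37.28 CPM in mutant DMSO, 63.96, 92.57 and 112.1 CPM in wild-type TCDD and 64.65, 74.91 and 85.57 CPM in wild-type DMSO. Mutant DMSO libraries were the low ones, with every library of the other groups above them. The rise in mutants was 1.02 ± 0.14 (edgeR adjusted p = 6.48e-05) and the mutants were lower in DMSO (log2 fold change -1.07 ± 0.15, edgeR adjusted p = 0.000131). The TCDD effect was larger in mutants than in wild type by 0.76 ± 0.21 (edgeR adjusted p = 0.0232), and by 0.67, not called, without replicate 4 of wild-type DMSO. Without mutant TCDD replicate 2 it was 0.74, and 0.71 without replicate 4, and neither was called.

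The largest fold change with TCDD in mutants was that of crygm2d10, named here after its values were seen. It had 68.7, 93.81, 113.5 and 75.36 CPM in mutant TCDD and 26.25, 40.82, 24.98 and 28.05 CPM in mutant DMSO libraries, a rise of 1.54 ± 0.26 (edgeR adjusted p = 0.000312). Wild-type libraries had 39.08, 92.37 and 112.4 CPM with TCDD and 40.2, 60.26 and 65.7 CPM in DMSO, with replicate 1 low in TCDD. The wild-type value with TCDD, 0.55 ± 0.29, did not pass (edgeR adjusted p = 0.23). Lower values in mutants in DMSO, -0.88 ± 0.28 (edgeR adjusted p = 0.0383), were not called by DESeq2 or limma-voom, or with the sample number or the library score as a term. Nor were they called without wild-type DMSO replicate 3 or 4 or mutant DMSO replicate 1, 3 or 4 (-0.75 to -0.85).

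Of the other copies, crygm2d13 and crygm2d1 also rose with TCDD in mutants. For crygm2d13, mutant TCDD libraries held 110.3, 121.6, 123.4 and 96.08 CPM, mutant DMSO 60.34, 72.33, 61.78 and 76.74 CPM, wild-type TCDD 139.8, 136.9 and 138.1 CPM and wild-type DMSO 77.79, 97.91 and 146.4 CPM. Its rise in mutants was 0.73 ± 0.15 (edgeR adjusted p = 0.001), and in DMSO the mutants were lower (log2 fold change -0.66 ± 0.16, edgeR adjusted p = 0.00782), and the value was -0.38, not called, without wild-type DMSO replicate 4. For crygm2d1, mutant TCDD libraries held 50.09, 35.59, 40.07 and 43.13 CPM, mutant DMSO 29.93, 26.6, 27.1 and 16.44 CPM, wild-type TCDD 56.06, 85.61 and 64.28 CPM and wild-type DMSO 46.03, 52.34 and 42.94 CPM. All 4 groups of crygm2d1 stood apart between the lines within an exposure. Its rise in mutants was 0.76 ± 0.17 (edgeR adjusted p = 0.00205), and the mutants were lower in DMSO (log2 fold change -0.91 ± 0.18, edgeR adjusted p = 0.00212) and under TCDD (log2 fold change -0.70 ± 0.17, edgeR adjusted p = 0.00611). With the library score as a term, the rise of crygm2d1 in mutants and its lower value with TCDD were not called. Nor were the rise of crygm2d13 in mutants and its lower value in DMSO.

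Several crystallin genes are neighbours in the genome. Read counts came from assembly GRCz11, and gene order was read from the later assembly GRCz12tu, where all 21 crygm2d copies form 1 uninterrupted run. No other protein-coding gene lies between cryba1l2 and crybb1l2, crybb1 and cryba4, crybb1l1 and cryba1l1, or crygmx and crygmxl2. The last 4 copies of the crygm2d run (crygm2d21, crygm2d10, crygm2d2 and crygm2d1) were all called lower in the mutants in DMSO. For crygm2d10 the groups overlapped, and its call was lost with DESeq2, limma-voom and the other alternatives given above. Since the counting of reads that match more than one copy is not known, the copies may not be independent of each other. Of the other 14 tested copies, crygm2d13, at the opposite end of the run, was called lower, and 13 were not called, at -0.92 to 0.93. Among those not called, crygm2d3, crygm2d4, crygm2d7, crygm2d9 and crygm2d19 had a mean of only 0.29 to 1.17 CPM, which limits their test. Both ends of the range come from these, crygm2d7 (-0.92 ± 0.55) and crygm2d9 (0.93 ± 0.41). This grouping by position was looked for after the values were seen, and crygm2d2 of these 4 did not rise with TCDD in mutants (-0.22 ± 0.21, edgeR adjusted p = 0.452).

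The gamma M genes of the crygmx group moved in opposite directions. For crygmxl2, mutant TCDD libraries held 106.6, 95, 98.81 and 94.33 CPM, mutant DMSO 57.78, 64.01, 65.34 and 54.66 CPM, wild-type TCDD 86.48, 113.3 and 98.02 CPM and wild-type DMSO 58.23, 74.54 and 85.88 CPM. TCDD libraries lay above DMSO libraries in both lines, though only just in wild type. The rise was 0.71 ± 0.11 in mutants (edgeR adjusted p = 0.000164) and 0.45 ± 0.13 in wild type (edgeR adjusted p = 0.0256). The wild-type call was lost without wild-type DMSO replicate 1 (0.29), wild-type TCDD replicate 3 (0.34) or 4 (0.45), or mutant DMSO replicate 1 (0.39). Against that, crygmxl1 held 15.12, 15.61, 17.23 and 15.63 CPM in mutant TCDD, 20.64, 21.25, 30.53 and 28.01 CPM in mutant DMSO, 10.81, 11 and 10.16 CPM in wild-type TCDD and 13.66, 12.79 and 18.44 CPM in wild-type DMSO. It was highest in mutant DMSO and lowest in wild-type TCDD, with the libraries of those groups apart from all others. TCDD in mutants lowered it (log2 fold change -0.66 ± 0.14, edgeR adjusted p = 0.00147), and mutants were higher than wild type in DMSO by 0.75 ± 0.15 (edgeR adjusted p = 0.00298) and under TCDD by 0.58 ± 0.15 (edgeR adjusted p = 0.00993). Its value with TCDD in wild type, -0.49 ± 0.16, did not pass (edgeR adjusted p = 0.0534), although all TCDD libraries lay below all DMSO libraries. That value was called with RLE scaling, no filter, the 1 CPM filter, DESeq2 and the sample-number term. It was not called with limma-voom, the groups compared alone, the replicate block or the library score.

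Gamma N crystallins have features of both the beta and the gamma families. The tested gene, crygn2, had 78.85, 91.29, 98.34 and 78.23 CPM in mutant TCDD and 48.01, 53.06, 46.72 and 41.32 CPM in mutant DMSO libraries. Wild-type libraries had 68.52, 100.4 and 97.7 CPM with TCDD and 49.19, 55.21 and 69.98 CPM in DMSO. In mutants the exposures were well apart, while in wild type replicate 1 with TCDD lay just under replicate 4 of DMSO. The rise was 0.87 ± 0.13 in mutants (edgeR adjusted p = 0.000133) and 0.61 ± 0.15 in wild type (edgeR adjusted p = 0.0134). The wild-type call was lost without DMSO replicate 1 (0.49) or TCDD replicate 3 (0.52) or 4 (0.54). The lines did not differ by a called amount in DMSO (-0.30 ± 0.14, edgeR adjusted p = 0.16). CRYGN, the other gamma N gene, was not tested and had 0.117, 0.221, 0.185 and 0.388 CPM in mutant TCDD, 0.0484, 0.257, 0.541 and 0.165 CPM in mutant DMSO, 0, 0.0397 and 0.138 CPM in wild-type TCDD and 0, 0.139 and 0.223 CPM in wild-type DMSO libraries.

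The gamma S crystallin gene crygs1 had close to no counts in mutant libraries. It had 4, 4, 0 and 1 counts in mutant TCDD and 0, 1, 0 and 3 counts in mutant DMSO, against 3, 59 and 40 counts in wild-type TCDD and 28, 9 and 53 counts in wild-type DMSO libraries. The ratio of summed counts, scaled to library size, of mutant over wild type was 0.0638 with TCDD (9 against 102 counts). In DMSO it was 0.0317 (4 against 90 counts). These ratios pool reads over libraries that differed widely in wild type, so they are descriptive and no interval is given. With TCDD the lines overlapped, as the wild-type library at 3 counts lay below the mutant libraries at 4 counts. In DMSO they did not overlap. The gene passed the filter on low counts through its wild-type libraries, and those varied widely, with replicate 1 of wild-type TCDD at the floor of 3 counts. Since the filter was passed that way, no p-value is given for crygs1.

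The crystallin genes varied together within groups to a moderate degree. After subtraction of group means, the median correlation over all 703 pairs of the 38 tested genes was 0.28 (quartiles 0.02 and 0.48, 14 libraries), a description in which all pairs share libraries and depth. Replicate 4 of wild-type DMSO gave the highest value of its group in 33 genes, replicate 3 of wild-type TCDD in 21 and replicate 3 of mutant DMSO in 17. Replicate 1 gave the lowest value in 20 genes in wild-type TCDD and in 24 in wild-type DMSO.

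The summed level of other lens genes was lowest in mutant DMSO as well, through bfsp2 and capn3a. Of 22 other genes of lens structure on the list, 19 had a row and 18 were tested. Summed, they had 640 to 689.7 CPM in mutant TCDD, 557.7 to 588.4 CPM in mutant DMSO, 657.6 to 727.2 CPM in wild-type TCDD and 653.8 to 717 CPM in wild-type DMSO libraries, so that mutant DMSO lay below every other library. Together, capn3a and bfsp2 had a mean of 377 CPM in mutant TCDD, 288 in mutant DMSO, 422 in wild-type TCDD and 399 in wild-type DMSO, while the other 16 genes summed to 292.5, 289.1, 270.9 and 292.3 CPM in the same order of groups. With TCDD in mutants 5 rose and 2 fell, with a median log2 fold change of 0.10 over the 18 genes, where 17.5% of all genes rose and 18.6% fell. In mutants against wild type in DMSO 3 were lower and 1 higher, with a median of -0.17, where 8.6% of all genes were lower and 8.21% higher. TCDD in mutants raised capn3a, a calpain protease, by 0.42 ± 0.08 (edgeR adjusted p = 0.000823), lgsn, the lens glutamine synthase-like lengsin, by 0.59 ± 0.12 (edgeR adjusted p = 0.0015) and lim2.4, a lens membrane protein gene, by 0.38 ± 0.08 (edgeR adjusted p = 0.00166), and lowered the connexin cx23 (log2 fold change -0.41 ± 0.10, edgeR adjusted p = 0.00336). In DMSO, mutants had less bfsp2 (-0.57 ± 0.08, edgeR adjusted p = 0.000168), capn3a (-0.41 ± 0.09, edgeR adjusted p = 0.00378) and dnase1l1l, a deoxyribonuclease gene (-0.62 ± 0.13, edgeR adjusted p = 0.00451), and more gja8a, a lens connexin (0.51 ± 0.16, edgeR adjusted p = 0.035).

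In the remaining comparisons, TCDD in wild type raised BFSP1, the beaded filament protein filensin (0.62 ± 0.14, edgeR adjusted p = 0.00855), and grifin, a lens galectin relative (0.88 ± 0.27, edgeR adjusted p = 0.0396), and lowered the connexins gja8b (-0.43 ± 0.11, edgeR adjusted p = 0.0183) and cx23 (-0.35 ± 0.11, edgeR adjusted p = 0.0425). With TCDD, mutants had more gja8a (0.54 ± 0.16, edgeR adjusted p = 0.0174) and mipa, a lens aquaporin (0.38 ± 0.14, edgeR adjusted p = 0.0483), and less birc7 (-0.99 ± 0.25, edgeR adjusted p = 0.00735) and grifin (-0.72 ± 0.25, edgeR adjusted p = 0.0412). The TCDD effect was larger in mutants for lim2.4 (0.40 ± 0.12, edgeR adjusted p = 0.0441) and bfsp2 (0.37 ± 0.12, edgeR adjusted p = 0.0449).

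**Figure D4:**
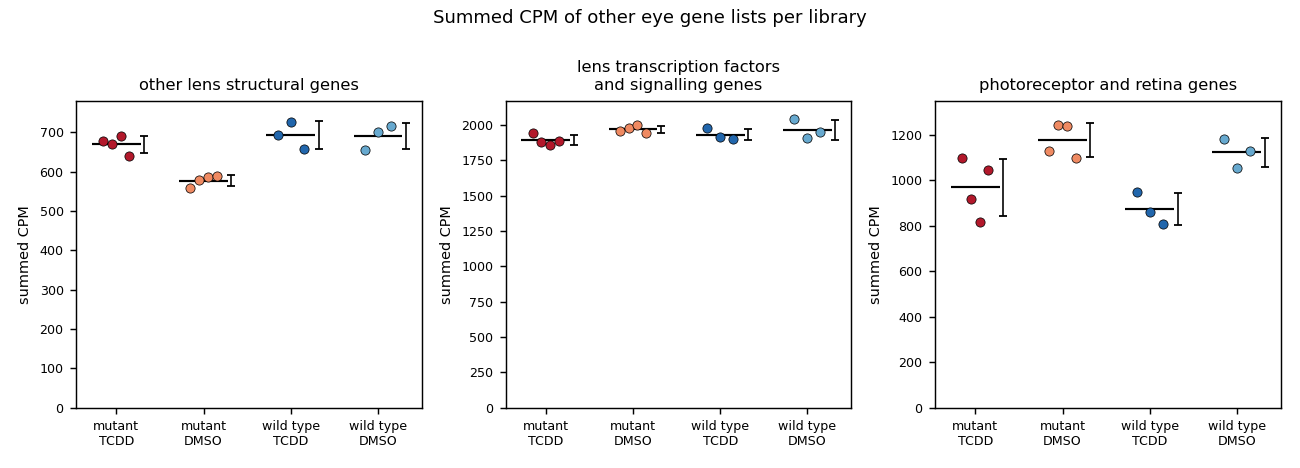
Summed CPM of 3 lists of eye genes other than crystallins (vertical axes, from 0) in each library of the 4 groups (horizontal axis), with group means as lines and the SD as bars. Other lens structural genes are lowest in mutant DMSO, at 557.7 to 588.4 CPM, through capn3a and bfsp2. Summed photoreceptor and retina genes average 969.4 CPM in mutant TCDD and 872.5 CPM in wild-type TCDD, below the DMSO means of 1177 CPM in mutants and 1122 CPM in wild type. Much of that lies in neurod4, at 150 CPM with TCDD against 278 in mutants and 124 against 234 in wild type. The median log2 fold change of the 28 tested retina genes was 0.10 in mutants and -0.09 in wild type.

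Regulators of lens genes moved in both directions. Of 22 tested lens transcription factor and signalling genes, 4 rose and 6 fell with TCDD in mutants, where 17.5% of all genes rose and 18.6% fell. With TCDD in wild type 2 rose and 2 fell, where 8.84% of all genes rose and 5.75% fell. The smallest p in mutants were those of tfap2a, a transcription factor of lens and neural crest, which rose by 0.52 ± 0.07 (edgeR adjusted p = 3.84e-05), and the receptor notch2, which fell (log2 fold change -0.55 ± 0.08, edgeR adjusted p = 0.000142). Next by p were celf1, which fell (-0.31 ± 0.07, edgeR adjusted p = 0.00245), and bmp7b, which rose (0.62 ± 0.14, edgeR adjusted p = 0.00288). The crystallin activator mafa was lower with TCDD in mutants (-0.47 ± 0.11, edgeR adjusted p = 0.0029) and in wild type (-0.43 ± 0.13, edgeR adjusted p = 0.0278). In DMSO 1 of the 22 was higher and 2 were lower in mutants. The higher gene was cdkn1cb (0.90 ± 0.20, edgeR adjusted p = 0.00548). The lower ones were hsf4, a heat shock factor of the lens (-0.45 ± 0.12, edgeR adjusted p = 0.0216), and pax6a (-0.33 ± 0.09, edgeR adjusted p = 0.0224). Over all genes 8.21% were higher and 8.6% lower in that comparison. Mutants against wild type with TCDD had 5 of the 22 higher and 3 lower, where 10.7% of all genes were higher and 16.9% lower. In the difference of the TCDD effects, notch2 (-0.72 ± 0.13, edgeR adjusted p = 0.000914) and prox1a, a regulator of fibre cells (-0.51 ± 0.15, edgeR adjusted p = 0.0272), were lower in mutants. Over all genes 10.2% were called lower in that test.

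Genes of other tissues were called in the same comparisons. Over all genes, 17.5% rose and 18.6% fell with TCDD in mutants, and 8.6% were lower and 8.21% higher in mutants in DMSO. Of 12 tested genes of the pigment epithelium and pigment cells, 5 rose with TCDD in mutants, and 6 had less RNA in mutants in DMSO. Their summed level was 1144 to 1260 CPM in mutant TCDD, 922.8 to 993.6 CPM in mutant DMSO, 1215 to 1333 CPM in wild-type TCDD and 1091 to 1239 CPM in wild-type DMSO libraries. Of 19 tested muscle, heart, notochord and small heat shock protein genes, 8 rose with TCDD in mutants, while in DMSO mutants had less RNA for 8 and more for 1. Their summed level was 2722 to 3023 CPM in mutant TCDD, 1721 to 1877 CPM in mutant DMSO, 2872 to 3531 CPM in wild-type TCDD and 2039 to 2942 CPM in wild-type DMSO libraries. Most of that sum was actc1b, at a mean of 1890, 1010, 1960 and 1270 CPM in the same order of groups. Of 28 tested photoreceptor and retina genes, 1 rose and 4 fell with TCDD in mutants, and 2 were higher in mutants in DMSO. These retina calls were no more frequent than the calls over all genes. The part of these tissues, and of the library score, in the crystallin values was not tested.

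The authors' deposited tables list crystallin genes in all 4 comparisons of groups. They name 19 for TCDD in mutants, 6 for TCDD in wild type, 10 for mutants in DMSO and 7 for mutants with TCDD. Of these, 19, 5, 10 and 6 were also called here, with the same sign for every crystallin gene in the authors' deposited tables.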

How the data were processed

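Per the labels' protocols, poly(A) RNA of whole-embryo pools went into stranded libraries. The deposited values used are raw counts per gene, made by the authors; the submitters' processing notes name assembly GRCz11, HISAT2 2.2.0, HTSeq 0.12.4, edgeR, cutadapt 1.8.1 and SAMtools 1.10, and the strand setting and the handling of multi-mapped reads are not given in the sources used here. The log2 ratios, log2 mean CPM, p-values and F statistic (a score) in the 4 deposited comparison tables are the authors' own, per the file headers, and were used for gene symbols and the overlap of calls.

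Counts of 14 libraries (of 16 labelled samples) went into edgeR 4.0.16 under R 4.3.3, with filterByExpr, TMM scaling, 1 mean per group, quasi-likelihood F tests, and Benjamini-Hochberg adjustment over 20098 of 32520 genes (99.9% of counts), called under 0.05. The biological coefficient of variation was 0.151. The SE was taken as the absolute log2 fold change divided by sqrt(F), and CPM is TMM-scaled. With no sequence of the assembly of the counts, transcript length was not used, so levels are not compared between genes. RefSeq names (43 of 46 members matched) from assembly GRCz12tu served for gene order. The fit was tested on simulated data.

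The members, gene lists and tests were chosen with earlier results of these data known. Named were the alpha genes and the 3 members of highest mean CPM in the beta, gamma M, gamma N and gamma S classes. Also named were the 4 called members of smallest p per comparison with a mean CPM of at least 1. For other genes of lens structure, up to 4 called genes of smallest p are named per comparison. Only some called genes of the remaining lists are named. Same-numbered samples did not pair: over 13 same-number pairs of groups that were compared, the correlation of deviations from group means was -0.357 to 0.206, above 0.1 in 2, and over all 19 same-number pairs -0.357 to 0.326, above 0.1 in 5. The alternatives tried were no filter on low counts, a minimum of 1 CPM in 4 libraries, RLE scaling, DESeq2 1.42.0, limma-voom (limma 3.58.1), the groups compared alone, the replicate block, sample number as a term and each library left out, and, chosen after seeing the data, the library score (first axis of within-group log2 CPM, prior count 2, mean log2 CPM of at least 1) as a term and the crygm2d copies summed. No libraries agreed within sampling noise. Promoter and protein sequences were not used here.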

Additional observations from a re-analysis of the deposited data

Results flagged for a closer look

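The level of cryba1l1 in replicate 2 of mutant DMSO, 76.54 CPM, lay far above the other libraries of its group at 65.87 to 67.25 CPM, by Dixon's test at the 95% level. Of 46 groups of mutant libraries tested in this way, this was 1, and chance flags about 1 in 20. Wild-type groups were not tested in this way. The TCDD effect of crybb1l2 was larger in mutants than in wild type by 0.60 on the log2 scale, and that of crygm2d21 by 0.76, each by the edgeR test of the difference itself.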

How the results depend on the processing

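For TCDD in wild type the count of called crystallin genes was 6, against 1 with the groups compared alone and 2 to 8 with a library left out. The lowest counts came without wild-type DMSO replicate 1 (2), wild-type TCDD replicate 4 (2) and wild-type TCDD replicate 3 (3). For TCDD in mutants it was 20, against 6 with the library score and 9 of 21 rows with the crygm2d copies summed, and 16 to 21 with a library left out. Mutants in DMSO gave 11, against 7 with copies summed and 9 to 14 with a library left out. Mutants with TCDD gave 7, against 4 with the score, 4 with copies summed and 5 to 10 with a library left out. Both comparisons of the lines count crygs1, which passed the filter through its wild-type libraries. The difference gave 2, against 0 with the score, 1 with copies summed, 4 with the replicate block and 0 to 4 with a library left out, at 0 without wild-type DMSO replicate 4 or mutant TCDD replicate 4, 1 without wild-type TCDD replicate 1, mutant DMSO replicate 2 or mutant TCDD replicate 2, and 4 without wild-type DMSO replicate 1. The block did not change any other count by over 1.5 times.

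The beta log2 ratio in DMSO, mutant over wild type, was -0.45 and ran from -0.52 to -0.31 with a library left out. The beta difference of TCDD effects was 0.42 and ran from 0.28 to 0.49, and the alpha ratio with TCDD was 0.29 and ran from 0.18 to 0.44. Values of single genes were followed for 48 fold changes of the named genes, most of them chosen because they were called. Of these values under all alternatives, 1043 kept their direction and call, 61 lost the call, 25 gained it and none turned round. Many of these fits left out a library of a group outside the comparison, so these counts are no measure of stability over all crystallin genes. Where a call was lost, the cause was not tested. Depth limits the genes with fewest counts, 8 of which could not be tested, and crygs1. Merging copies by protein identity was planned and not run.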
